A study of Mus musculus with 4 samples.

Results

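Cyr61, Apold1 and Thbs1 are early-response genes of blood vessels and of the extracellular matrix, and 3 of the 230 genes in the deposited table of brain transcripts. They were picked by name, with their values in this table known, to ask how much of the rise after pentylenetetrazole (PTZ) remained in mice without tau. The table comes from 4 libraries, 1 for each condition, made from C57Bl/6 mice at 6 weeks of age. The conditions were tau+/+ sham, tau+/+ PTZ, tau-/- sham and tau-/- PTZ, where sham mice received vehicle and PTZ mice received 50 mg/kg of PTZ into the peritoneum, with RNA taken after 1 h. PTZ blocks inhibitory GABA receptors and provokes seizures, and the mice sequenced after PTZ had been matched on how severe their seizures were. Tau-/- mice carry a GFP cDNA knocked into the first exon of Mapt, which removes tau in every cell type, so they do not show in which cells tau acts. The number of mice behind each library is not given in the sources used here. The labels name brain as the source of the RNA but also speak of primary neurons. Ttr, the leading product of choroid plexus epithelium, was at 1504 FPKM in tau+/+ sham, and cultured neurons hold no such epithelium. Mapt was not analysed here, so the genotypes rest on the labels.

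All 3 genes are switched on within minutes to hours of a stimulus and need no new protein to start. Cyr61 (also Ccn1) encodes a secreted matricellular protein of the CCN family, which binds integrins on vessel and connective tissue cells rather than building the matrix. Its gene is a known target of serum response factor (SRF) and of the YAP and TEAD factors, which respond to growth factors and to tension in the actin cytoskeleton. Apold1 encodes apolipoprotein L domain containing 1, first described as an early-response gene of endothelium in injured brain vessels. Thbs1 encodes thrombospondin-1, a matricellular glycoprotein that restrains vessel growth and activates latent TGF-β. In brain, Thbs1 is also released by astrocytes and acts on forming synapses. No defining marker of endothelium (0 of 8) or of mural cells (0 of 5) was among the 230 genes, so the vascular part of the name rests on what is known of the genes and could not be checked in these libraries. In bulk brain, fewer cells of a type and less RNA per cell cannot be told apart.

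On GRCm38, in the GENCODE M21 annotation, Cyr61 lies on chromosome 3 from 145646976 to 145649981, on the minus strand, with 5 exons and a transcript of 2019 bases. Apold1 lies on chromosome 6 from 134981718 to 134986836, on the plus strand, with 2 exons and a transcript of 3567 bases. Thbs1 lies on chromosome 2 from 118111876 to 118127133, on the plus strand, with 22 exons and a transcript of 5848 bases. A noncoding gene on the opposite strand, Gm29233, overlaps exons 19 and 20 of Thbs1, and no source used here says that counting used the strand, so reads of the pair cannot be told apart there. No other annotated gene overlaps Cyr61 or Apold1.

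Cyr61 and Apold1 moved alike across the libraries, so the sequence before their start sites is shown. The RefSeq promoter table for GRCm38.p6 matched 2 of the 3 genes, and Thbs1 had no entry. For Cyr61, the 250 bases upstream of the RefSeq start are chr3:145649986-145650235, read on the minus strand. For Apold1, the 250 bases before the RefSeq start fall inside the first exon of the GENCODE transcript, so only pieces of 24 bases around the matches are given, chr6:134981939-134981962 and chr6:134981960-134981983, on the plus strand. Capitals mark the matches to TATAAA, to TGACG (a partial cAMP response element, here as CGTCA on the other strand) and to CATTCC (a TEAD motif).
Cyr61: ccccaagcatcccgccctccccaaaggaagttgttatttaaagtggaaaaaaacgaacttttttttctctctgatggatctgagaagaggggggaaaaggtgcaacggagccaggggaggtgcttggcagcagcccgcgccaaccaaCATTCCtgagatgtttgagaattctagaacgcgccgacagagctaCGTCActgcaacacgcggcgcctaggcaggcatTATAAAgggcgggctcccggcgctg
Apold1, TGACG match: ttcccagagcCGTCAttggctcct
Apold1, TATAAA match: cctgggagcTATAAAgtatgctcg

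TATAAA began 25 bases before the start in Cyr61 and 32 bases before it in Apold1. The TGACG match began 58 bases before the start in Cyr61 and 52 bases before it in Apold1, in both on the strand opposite to the gene. Over the same 250 bases on either strand, 12.4% of the 32851 promoters in the table hold TATAAA, 17.8% hold TGACG and 1.54% hold both. The joint share was counted only for this pair, which both genes hold, so it does not measure how often some pair is shared. CATTCC was found in Cyr61 and not in Apold1, and 12.6% of all promoters hold it. TGANTCA (the AP-1 motif, in 6.75% of all promoters), TGACGTCA (1.55%) and the CArG box that SRF binds (1.47%) were not found in these windows of either gene. The letters are a description of these windows, and the FPKM values say nothing of which factors bound there.

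Cyr61 had 2.03 FPKM in tau+/+ sham, 32.3 FPKM in tau+/+ PTZ, 2.63 FPKM in tau-/- sham and 14.5 FPKM in tau-/- PTZ. FPKM counts sequenced fragments per length of transcript and per size of library, so levels can be set side by side between genes. Both PTZ libraries were far above both sham libraries, and the tau+/+ PTZ library was the highest. Apold1 had 0.633 FPKM in tau+/+ sham, 5.70 FPKM in tau+/+ PTZ, 0.940 FPKM in tau-/- sham and 3.01 FPKM in tau-/- PTZ. It was at a lower level than Cyr61 in every library, but its libraries came in the same order. Thbs1 had 0.581 FPKM in tau+/+ sham, 1.71 FPKM in tau+/+ PTZ, 0.904 FPKM in tau-/- sham and 0.704 FPKM in tau-/- PTZ. Only tau+/+ PTZ stood apart for Thbs1, and its tau-/- PTZ library lay between the 2 sham libraries. With 1 library per condition there is no replicate error, no difference here can be set against a spread, and none was tested. At the smallest number of aligned read pairs that the methods give for a library, and with the transcript lengths above, the tau+/+ sham values stand for about 98 fragments of Cyr61, 54 of Apold1 and 82 of Thbs1. The exact numbers are not known, since the libraries may be deeper and the transcript lengths used for counting may differ from those given here.

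**Figure D1:**
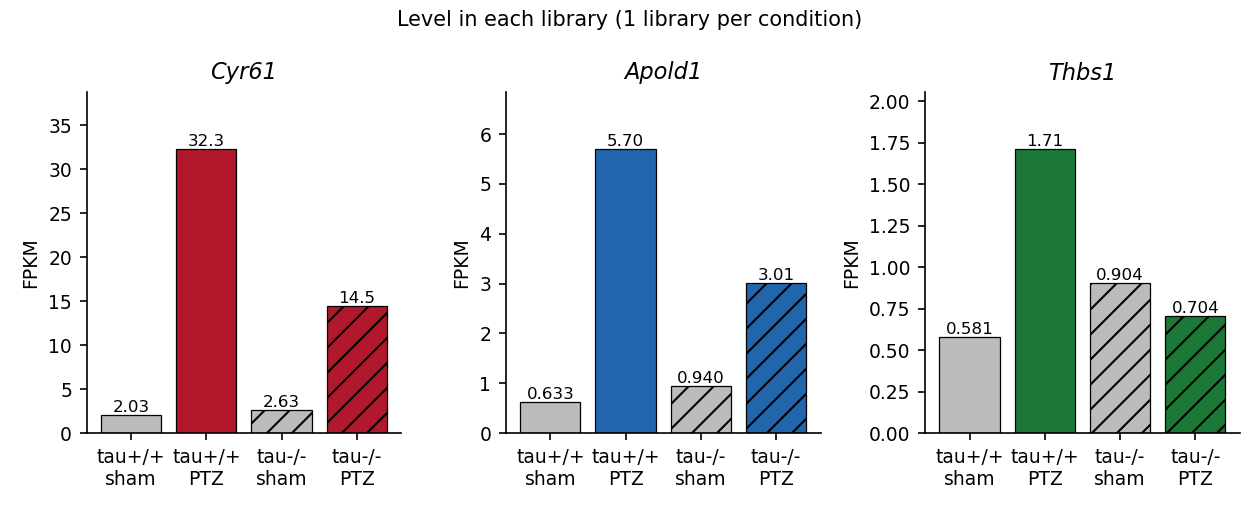
Bars give the FPKM of Cyr61, Apold1 and Thbs1 in each of the 4 libraries, 1 library per bar, on a linear axis from 0 with its own scale for each gene. Hatched bars are tau-/-. For Cyr61 and Apold1 the tau-/- PTZ bar, at 14.5 and 3.01 FPKM, is well above both sham bars, and for Thbs1 it is at 0.704 FPKM, between the sham bars at 0.581 and 0.904 FPKM.

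In tau+/+, PTZ was followed by a rise in all 3 genes. Cyr61 was 16.0-fold higher after PTZ than after sham (log2 4.0), Apold1 was 9.01-fold higher (log2 3.17) and Thbs1 was 2.95-fold higher (log2 1.56). Of the 175 genes that were higher after PTZ in tau+/+, Cyr61 had the fifth largest log2 rise, Apold1 ranked 11 and Thbs1 ranked 51. The median log2 rise of those 175 genes was 0.97. The table was selected by the authors for a change of over 1.5-fold in tau+/+, and 76.1% of its 230 genes passed that fold upward, so the 3 rises follow from the selection and are given as values only. The order of the 3 genes was the same in FPKM gained, with 30.3 FPKM for Cyr61, 5.07 FPKM for Apold1 and 1.13 FPKM for Thbs1.

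In tau-/-, the genes parted. Against tau-/- sham, the comparison within genotype that the methods describe, Cyr61 was 5.51-fold higher after PTZ (log2 2.46) and Apold1 was 3.21-fold higher (log2 1.68). Thbs1 went the other way, to 0.778 of its sham level (log2 -0.36), which is within 1.5-fold. Past 1.5-fold upward were 2 of the 3 genes, against 8.7% of the 230 genes in the table. Of the 31 genes that rose at least 4-fold in tau+/+, Cyr61 and Apold1 among them, 11 were past it. Among the 175 genes rising in tau+/+, only Xlr3b had a larger log2 rise in tau-/- than Cyr61, and Apold1 ranked 3. Xlr3b was at 0.171 FPKM in tau-/- sham. The gain in tau-/- was 11.8 FPKM for Cyr61 and 2.07 FPKM for Apold1, and Thbs1 changed by -0.201 FPKM.

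The share of the rise that remained was taken as the log2 response in tau-/- divided by that in tau+/+. It was 61.6% for Cyr61, 53.0% for Apold1 and -23.2% for Thbs1, where a negative share means a change in the opposite direction. The median share over the 175 rising genes was -7.27%, and 16 of them (9.14%) kept at least 50%. Cyr61 ranked 8 and Apold1 ranked 10 of 175, while Thbs1 ranked 116. Counted in FPKM gained, the shares were 39.1% for Cyr61, 40.9% for Apold1 and -17.7% for Thbs1, so the order of Cyr61 and Apold1 turned around while Thbs1 stayed below 0. Over the 3 pairs of genes, the log2 shares of Cyr61 and Apold1 lay 8.62 percentage points apart, those of Cyr61 and Thbs1 84.8 points apart, and those of Apold1 and Thbs1 76.2 points apart. With no replicate, the gap between Cyr61 and Apold1 cannot be set against an error.

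**Figure D2:**
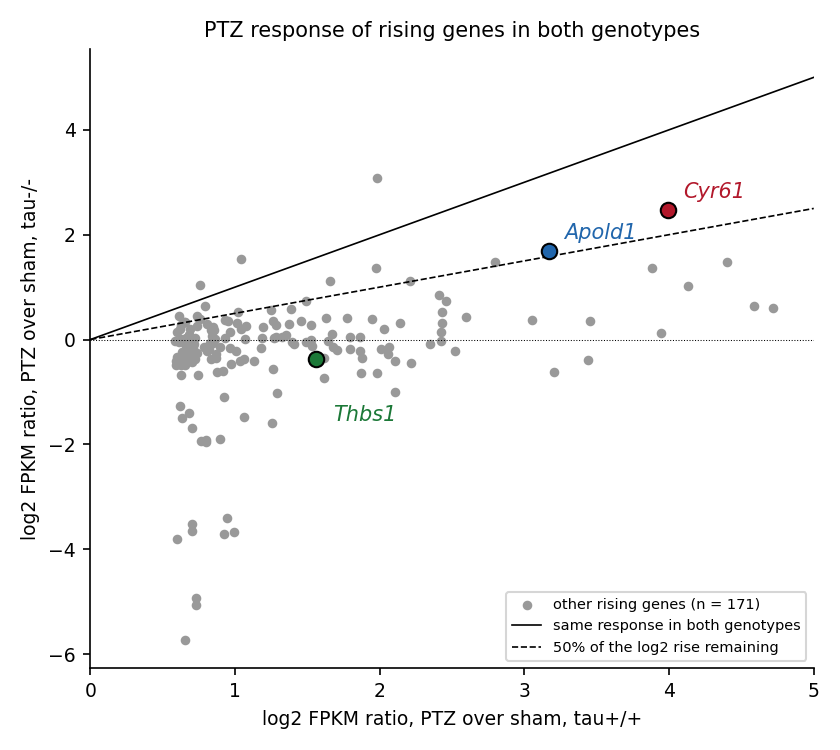
Each point is a gene that was higher after PTZ in tau+/+, with its log2 FPKM ratio of PTZ over sham in tau+/+ on the horizontal axis and in tau-/- on the vertical axis. The solid line marks an equal response and the dashed line 50% of it. Defb11, listed at 0 in tau-/- PTZ, has no ratio and is not drawn. Cyr61 and Apold1 lie above the dashed line, at 61.6% and 53.0%, and Thbs1 lies below 0. Of the 175 rising genes, 97 were below sham in tau-/-, a count that includes Thbs1 and the undrawn Defb11.

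The strong risers were also looked at on their own. A rise of at least 4-fold in tau+/+, a limit chosen after the values were seen, was met by 31 genes, among them Cyr61 and Apold1 but not Thbs1. Their median share was 12.0%. Cyr61 had the largest share of the 31 and Apold1 the second largest, ranks that depend on the limit. Just under it, Xlr3b (3.94-fold) and Nfkbid (3.93-fold) had larger shares, of 155.7% and 68.6%. Within the 31, Cyr61 and Apold1 were followed by Maff, a small Maf transcription factor, at 52.8%. Dusp1, a phosphatase of MAP kinases, came next at 50.2%, then Zfp36, which promotes decay of short-lived mRNAs, at 35.6%. Btg2 (35.1%), Atf3 (33.6%) and Sik1 (29.6%) followed. Among the lower shares were those of Fos (24.6%), of Npas4, an activity-dependent factor of neurons (14.1%), of Fosb (12.8%) and of Egr2 (3.31%). After PTZ, the tau-/- level was 44.8% of the tau+/+ level for Cyr61 and 52.8% for Apold1, against a median of 23.7% over the 31 genes. Over all 175 rising genes the median was 51.0%, and on this measure Cyr61 ranked 107 and Apold1 ranked 80 from the highest.

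The table was described as genes with a lacking or milder response in tau-/-, so a lower response in the 3 genes is given as a description. On the FPKM ratios, 6 of the 230 genes, among them Xlr3b, had a stronger response in tau-/- than in tau+/+ when tau-/- sham was the baseline, and 0 had one when tau+/+ sham was. On the log2 scale the response in tau-/- was below that in tau+/+ by 1.53 for Cyr61, by 1.49 for Apold1 and by 1.92 for Thbs1, and the median difference over the 175 rising genes was -1.24. Counted from the smallest loss, Cyr61 ranked 106, Apold1 ranked 102 and Thbs1 ranked 125 of 175. Thbs1 began with a log2 rise of 1.56 in tau+/+, and its loss of 1.92 was larger than that rise. All 3 genes were lower by over 1.5-fold in tau-/- PTZ than in tau+/+ PTZ, with log2 differences of -1.16 for Cyr61, -0.92 for Apold1 and -1.28 for Thbs1, and 60.4% of the 230 genes were. The tau-/- PTZ level of Thbs1 was 41.1% of its tau+/+ PTZ level, close to the 44.8% of Cyr61.

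The sham libraries also differed. In tau-/- sham, Cyr61 was 1.30-fold the tau+/+ sham level, Apold1 1.49-fold and Thbs1 1.56-fold, or 0.37, 0.57 and 0.64 on the log2 scale. Of the 3 genes, 1 was past 1.5-fold, against 13.9% of the 230 genes. Among all 175 rising genes the median log2 difference was 0.23, and 121 had the higher level in tau-/- sham. The selection of the table used the tau+/+ sham level, and its part in this difference was not tested. Against tau+/+ sham, tau-/- PTZ was 7.14-fold higher for Cyr61, 4.76-fold higher for Apold1 and 1.21-fold higher for Thbs1, and 14.8% of the table passed 1.5-fold upward on that baseline. The shares were then 71.0% for Cyr61, 71.0% for Apold1 and 17.7% for Thbs1. On that baseline the gap between Cyr61 and Apold1 closed, to -0.017 percentage points, and Thbs1 no longer went in the opposite direction. The share of Thbs1 was then close to the median of 17.2% over the 175 rising genes.

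**Figure D3:**
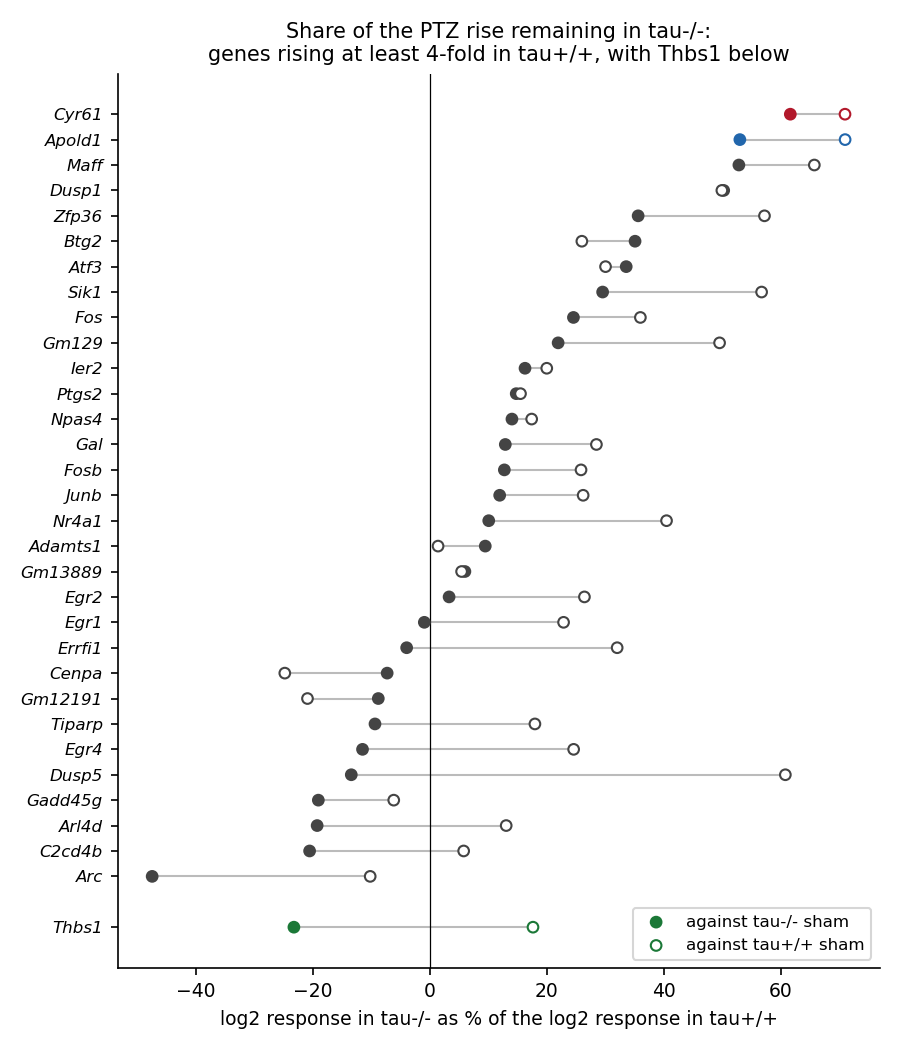
For the 31 genes that rose at least 4-fold in tau+/+, and for Thbs1 at the bottom, points give the log2 response in tau-/- as a percentage of that in tau+/+, filled against tau-/- sham and open against tau+/+ sham. Among these 31 genes, Cyr61 and Apold1 are the top pair on both baselines, and Thbs1 moves from -23.2% to 17.7%. Over all 175 rising genes, Cyr61 and Apold1 rank 8 and 10 against tau-/- sham, and 7 and 6 against tau+/+ sham.

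Which genes had a pattern most like each member was measured by the distance between their log2 FPKM profiles over the 4 libraries, each centered on its own mean, among the 228 other genes with no library at 0. A distance of 0 means the same ratios between all libraries. The gene nearest to Cyr61 was Apold1, at a distance of 0.83, followed by Maff (1.10), Fos (1.24), Atf3 (1.44) and Btg2 (1.45). The gene nearest to Apold1 was Maff, at 0.33, with 0.334 FPKM in tau+/+ sham, 2.32 FPKM in tau+/+ PTZ, 0.429 FPKM in tau-/- sham and 1.19 FPKM in tau-/- PTZ. Maff thus rose in both genotypes like Apold1, at a still lower level. Next to Apold1 came Zfp36 (0.80), Cyr61 (0.83), Sik1 (0.84) and Dusp1 (0.88). The profiles share all 4 libraries, and these distances describe them without a test.

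Thbs1 had other neighbors. The nearest were LOC100504703 (0.16), Cd14 (0.17), Nfil3 (0.19), Rasl11a (0.21) and Gadd45b (0.26), all of which were lower in tau-/- PTZ than in tau-/- sham. Cd14, a coreceptor for bacterial lipopolysaccharide on myeloid cells, had 0.705 FPKM in tau+/+ sham, 2.04 FPKM in tau+/+ PTZ, 0.966 FPKM in tau-/- sham and 0.884 FPKM in tau-/- PTZ. Gadd45b, a stress-induced growth arrest gene, had 5.93, 14.2, 9.19 and 6.20 FPKM in the same order. Among the same 228 genes, Apold1 was only number 192 in nearness to Thbs1, and Cyr61 number 216. The order of the libraries seen in Thbs1, with tau+/+ PTZ highest, then tau-/- sham, tau-/- PTZ and tau+/+ sham, was found in 50 of the 230 genes (21.7%). The order seen in Cyr61 and Apold1 was found in 49 genes (21.3%), so the order alone does not set these genes apart.

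**Figure D4:**
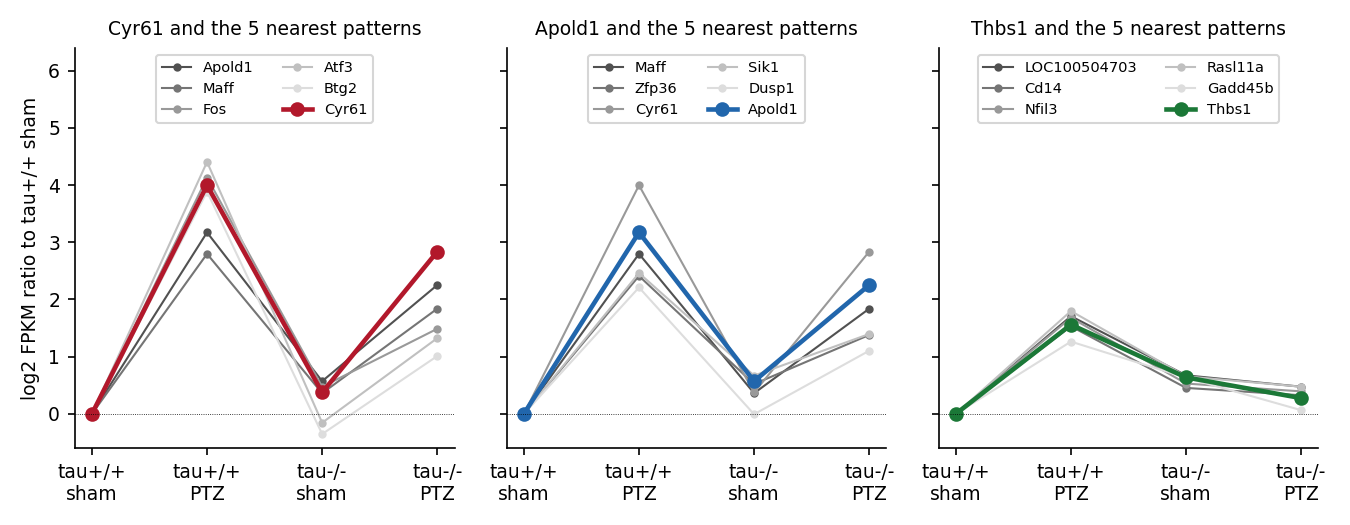
Points give the log2 FPKM ratio of each library to tau+/+ sham, and lines join the 4 libraries of a gene. Each panel shows a member in color and the 5 genes with the nearest pattern in gray. The 5 genes beside Cyr61 and the 5 beside Apold1 rise in tau-/- PTZ above tau-/- sham, and the 5 beside Thbs1 are lower in tau-/- PTZ than in tau-/- sham.

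In the ranking by share, the genes just above Cyr61 were Fdxr (72.4%), Nfkbid (68.6%) and Klf4 (67.4%), and Spry2 (61.5%) stood between Cyr61 and Apold1. Below Apold1 came Maff, Gstm2 (51.9%) and Nedd9 (51.8%). Of these, Fdxr, Spry2, Gstm2 and Nedd9 had log2 rises in tau+/+ of 0.62, 0.74, 1.02 and 0.65, all below those of Cyr61, Apold1 and Thbs1. With tau+/+ sham as the baseline, the shares of Nfkbid (22.0%), Spry2 (-38.0%), Gstm2 (-11.1%) and Klf4 (63.3%) were lower than before. Those of Fdxr (87.2%), Nedd9 (68.0%) and Maff (65.7%) were higher, as were those of Cyr61 and Apold1. Beside Thbs1 stood Bdnf (-22.0%), Mid1 (-22.3%) and Cdkn1a (-23.1%) above it, and Med7 (-24.9%), Ddit4 (-25.6%) and Hax1 (-26.1%) below it. Thbs1 had the largest tau+/+ rise of these 7 genes, whose other members had log2 rises from 0.67 to 1.01.

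Other genes near the members in function came from 4 lists, counted without the members themselves. Of the 8 other CCN and thrombospondin genes listed, none was among the 230 genes, so nothing can be said here of Ctgf or of Thbs2 to Thbs4. Of the 18 genes in the list of SRF- and YAP-linked early genes, 15 were in the table. Its YAP-linked genes Ctgf, Ankrd1 and Amotl2 were not, so the counts do not cover them. All 15 rose by over 1.5-fold in tau+/+, as 76.1% of the selected table did, with a median log2 of 2.80. In tau-/-, 5 of the 15 rose by over 1.5-fold, 1 fell and 9 stayed within 1.5-fold, with a median log2 of 0.35. Over the whole table, 8.7% of the 230 genes were past that fold upward and 16.5% downward in tau-/-. Of the 175 rising genes, 18 were past it upward and 31 downward, with a median of -0.06. Of the 31 genes rising at least 4-fold in tau+/+, which share genes with the list, 11 were past it upward and 2 downward. Their median was 0.32, so the list lay close to the strong risers. The 5 were Maff, Atf3, Klf4, Fos and Fosb, with log2 values of 1.48, 1.48, 1.12, 1.01 and 0.60. Srf itself, the factor that binds CArG boxes, had 15.1 FPKM in tau+/+ sham, 23.4 FPKM in tau+/+ PTZ, 18.5 FPKM in tau-/- sham and 15.7 FPKM in tau-/- PTZ. Arc, which acts at synapses, was the 1 that fell, with a log2 of -0.999. Against tau+/+ sham, 9 of the 15 rose past 1.5-fold, against 14.8% of the 230 genes and 19 of the 31 strong risers. The median of the 15 was then 0.85, and that of the strong risers 0.80.

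Of the 12 genes in the list of matrix proteins and matrix enzymes, 9 were in the table. In tau+/+, 8 rose and 1 fell (Mmp16, a membrane-bound metalloproteinase) by over 1.5-fold, where 76.1% of the table was higher and 23.9% lower, with a median log2 of 0.68. In tau-/-, 0 of the 9 rose and 2 fell by over 1.5-fold, with a median of -0.22, or 0.00117 against tau+/+ sham. These counts are near the 8.7% upward and 16.5% downward of the whole table. Adamts1, a secreted protease of matrix proteoglycans that is also induced early, had 4.59 FPKM in tau+/+ sham, 18.7 FPKM in tau+/+ PTZ, 4.09 FPKM in tau-/- sham and 4.68 FPKM in tau-/- PTZ, a share of 9.50%. The 2 that fell were Pcolce, an enhancer of procollagen processing, and A2m, a protease inhibitor of plasma, with log2 values of -1.41 and -1.27. Lum, a collagen-binding proteoglycan, had -0.37 in tau-/-, near the value of Thbs1. Col4a2, a collagen of vessel basement membranes, rose by a log2 of 0.59 in tau+/+ and had -0.03 in tau-/-.

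In the list of genes known from endothelium or its response to flow and injury, 9 of the 12 genes other than Apold1 were in the table, and all 9 rose by over 1.5-fold in tau+/+ (76.1% of the table), with a median log2 of 0.93. In tau-/-, 2 of the 9 rose by over 1.5-fold (8.7% of the table), 0 fell (16.5% of the table) and the median was 0.19. The 2 were Atf3, a stress-induced factor, and Klf4, a factor that quiets endothelium under flow, and both also stand in the SRF and YAP list. Klf4 had 2.31 FPKM in tau+/+ sham, 7.30 FPKM in tau+/+ PTZ, 2.21 FPKM in tau-/- sham and 4.79 FPKM in tau-/- PTZ, a share of 67.4%. Klf2, another flow-induced factor of endothelium, had 6.21, 11.9, 5.97 and 7.69 FPKM in the same order, a share of 39.1%. Smad7, an inhibitor of TGF-β signaling, rose by a log2 of 1.39 in tau+/+, and its value in tau-/- was -0.05. The lists are small, share genes with each other and hold only genes that the authors had selected, and no list was tested.

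**Figure D5:**
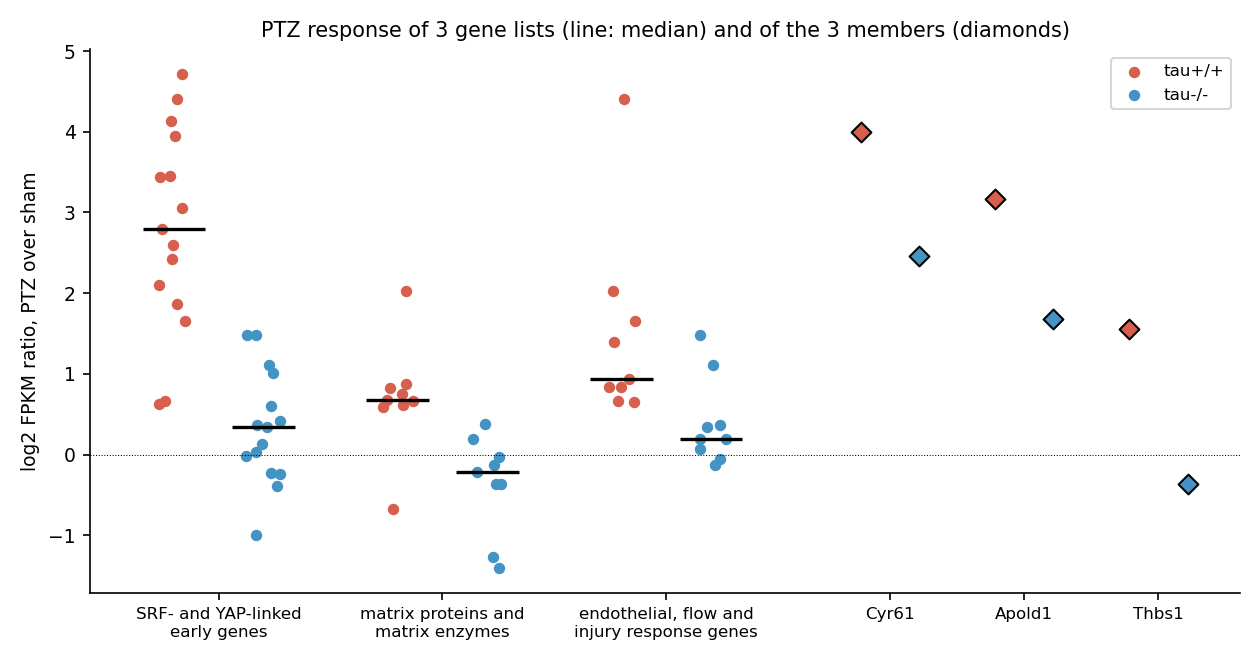
Points are genes of the 3 lists found in the table, with the log2 FPKM ratio of PTZ over sham in tau+/+ (red) and tau-/- (blue), a line at each median and no meaning in the sideways spread. Diamonds are Cyr61, Apold1 and Thbs1. The tau-/- diamonds of Cyr61 and Apold1, at 2.46 and 1.68, lie above every tau-/- point of the 3 lists, and that of Thbs1, at -0.36, lies near the matrix median of -0.22.

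Markers of other cells moved in the tau-/- PTZ library. The 7 of 9 choroid plexus markers in the table summed to 1548 FPKM in tau+/+ sham, 2569 FPKM in tau+/+ PTZ, 1138 FPKM in tau-/- sham and 35.9 FPKM in tau-/- PTZ. None of the 7 was at 0 in any library. The 5 of 8 markers of meningeal and perivascular fibroblasts summed to 15.9, 26.2, 16.7 and 11.0 FPKM in the same order, and 4 of the 5 (Lum, Mfap2, Pcolce and Mxra8) also stand in the matrix list. Their log2 responses in tau-/- ranged from -1.41 for Pcolce, with 7.78 FPKM in tau-/- sham and 2.94 FPKM in tau-/- PTZ, to 0.38 for Mfap2, which was higher after PTZ, so the lower sum is mostly that of Pcolce. The summed fibroblast level was lowest in tau-/- PTZ, the library in which Cyr61 and Apold1 were second highest, and the tau-/- PTZ level of Thbs1 was the third highest of its 4. The part that the mix of cells in that library plays in the values of the 3 genes was not tested.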

How the data were processed

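Brain RNA was sequenced by the authors as read pairs from libraries made with an Illumina kit, with 1 library per condition. Per the labels and the methods, reads were aligned to GRCm38/mm10 with TopHat2 2.03 and Bowtie2 2.0.0.6, allowing 2 mismatches, and Cuffdiff 2.01 gave the deposited FPKM values. The annotation used for counting is not given in the sources used here. The table holds 230 genes, described by the authors as changed in tau+/+ with a lacking or milder change in tau-/-. Its 4 columns of the authors' own fold changes and p-values, which set tau+/+ sham against tau+/+ PTZ and against tau-/- PTZ, were not used.

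Log2 ratios of FPKM were computed without a pseudocount. The members and the lists were chosen with earlier results of these data known. The genes named are the 3 members, the 5 nearest in pattern to each, the 3 neighbors on each side in the share remaining, and members of the lists. The strong risers, Xlr3b and the marker Ttr were added after values were seen. A gene at 0 FPKM (Defb11, in tau-/- PTZ) was ranked as lowest. Alternatives were pseudocounts of 0.1 and 1 FPKM, the other sham baseline, a mean of at least 1 FPKM, a 2-fold limit, FPKM gained in place of log2, and a rescaling of the tau-/- libraries. Fragment numbers were approximated from FPKM, GENCODE transcript lengths and the minimum of 24000000 aligned read pairs per library in the methods, and no counting interval was computed from them. Functions were tested on simulated data for 230 genes, with 9 of 9 checks passed. Python 3.11.15, numpy 2.4.6, pandas 2.3.3 and matplotlib 3.10.9 were used.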

Additional observations from a re-analysis of the deposited data

Results flagged for a closer look

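Thbs1 moved in opposite directions in the genotypes, up by a log2 of 1.56 in tau+/+ and to a log2 of -0.36 in tau-/-, each from 1 library per condition. The difference was not tested. The tau-/- change is within 1.5-fold. It stands for about 127 fragments in tau-/- sham and 99 in tau-/- PTZ, at the smallest read number in the methods. With tau+/+ sham as the baseline, the tau-/- log2 of Thbs1 was 0.28, so it no longer went in the opposite direction. Of the 175 genes rising in tau+/+, 97 (55.4%) were below tau-/- sham in tau-/- PTZ, so the direction of Thbs1 on that baseline is common in this table.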

How the results depend on the processing

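Of 74 recomputed values, 41 stayed within 0.1 on the log2 scale, 10 percentage points or 1.5 times a count, and 33 moved further, of which 3 changed sign. All 3 did so with tau+/+ sham as the baseline. They were the share of Thbs1 (17.7%) and its tau-/- response, whose size is smaller than the difference between its 2 sham libraries, and the matrix list's median. That baseline gave tau-/- log2 responses of 2.84 for Cyr61, 2.25 for Apold1 and 0.28 for Thbs1. For Apold1 it also gave a share of 71.0% and rank 6. In the SRF and YAP list, 9 of the genes found then rose past 1.5-fold, and the median was 0.85. Medians were 0.00117 for the matrix list and 0.31 for the endothelial list. Counted in FPKM gained, the shares of Cyr61 and Apold1 were 39.1% and 40.9%, and Cyr61 ranked 13. A pseudocount of 1 FPKM gave log2 responses in tau+/+ of 3.46 for Cyr61, 2.04 for Apold1 and 0.78 for Thbs1, and in tau-/- of 2.09, 1.05 and -0.16. It gave sham differences of 0.26, 0.25 and 0.27 in the same order, and PTZ differences of -0.74 for Apold1 and -0.67 for Thbs1. A pseudocount of 0.1 FPKM gave log2 responses in tau+/+ of 2.99 for Apold1 and 1.41 for Thbs1, and a PTZ difference of -1.17 for Thbs1. With the tau-/- libraries divided by the median sham ratio of 1.08, sham differences were 0.27 for Cyr61, 0.46 for Apold1 and 0.53 for Thbs1, and PTZ differences were -1.27, -1.03 and -1.39.

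The shares of Cyr61 and Apold1 stayed between 39.1% and 71.0% under every alternative run, above that of Thbs1 each time. With a mean of at least 1 FPKM, 167 of the 175 rising genes remained and Thbs1 was left out, so it has no rank there. No paired analysis was possible because each group has 1 library. By FPKM and transcript length, Apold1 has the fewest fragments of the 3 genes in both sham libraries and Thbs1 in both PTZ libraries.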
